A study of Homo sapiens with 36 samples.

Results

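The 40 genes described here are those of glycolysis and of the transcriptional response to low oxygen. The set is defined by gene names and no measured value enters its rule, although it was drawn up with earlier results of these data known. The symbols were matched to the Ensembl gene identifiers of the count table. All 40 were found among its 58243 genes. They comprise 4 glucose and lactate transporters, 17 glycolytic enzymes, 4 regulatory kinases, 13 other targets of the hypoxia-inducible factors (HIF) and both HIF alpha subunits. RNA was sequenced from PANC-1, BxPC-3 and MIA PaCa-2, established human lines of pancreatic ductal adenocarcinoma, for which the labels give no genotype. Cells of each line received, for 48 h, the vehicle DMSO or 1 of 3 ligands of the liver X receptors (LXR) at 10 µM: the synthetic agonist GW3965, or 1E5 or 3A4, code-named compounds that the labels class as inverse agonists. Each of the 12 groups had 3 libraries, numbered as biological replicates. Nothing in the labels ties the numbers to separate cultures, so each p-value reflects the scatter of these libraries, which may be technical. BxPC-3 was kept in RPMI 1640 and the other lines in high-glucose DMEM with HEPES, all with 10% fetal bovine serum, so differences between BxPC-3 and the other lines cannot be told apart from differences between the media.

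Glycolysis converts glucose, taken up by transporters such as GLUT1, to pyruvate through a chain of cytosolic enzymes. Lactate dehydrogenase then turns pyruvate to lactate, which leaves the cell through monocarboxylate transporters, and pyruvate dehydrogenase kinases hold pyruvate back from the mitochondria. When oxygen is low, the HIF alpha subunits escape degradation and, with their partner ARNT, raise the transcription of most of these genes together with those for angiogenic factors, pH control and oxygen sensing. Pancreatic ductal adenocarcinoma is known for poor perfusion and strong glycolysis. LXRs are nuclear receptors for oxysterols and are best known for control of cholesterol and fatty acid genes.

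Library totals ran from 14960970 to 26026684 counts in PANC-1, from 19605935 to 25888304 in BxPC-3 and from 2701393 to 25503827 in MIA PaCa-2. Depth and ligand were linked in MIA PaCa-2, where the DMSO libraries held 3609582 to 10996848 counts and the 1E5 libraries 23675670 to 25503827. The 40 genes together took 2.39% to 2.51% of the counts with DMSO and 1.21% to 1.23% with 1E5 in MIA PaCa-2, and 1.44% to 1.61% and 0.838% to 1.18% in PANC-1. The mitochondrially encoded share moved with 1E5 as well, from 7.52% to 7.58% with DMSO down to 1.49% to 2.86% with 1E5 in MIA PaCa-2. In PANC-1 it was 6%, 7.22% and 7.23% with DMSO and 2.69%, 6.59% and 3.91% with 1E5, groups that overlapped. Epithelial and ductal markers were found in every line, but not all of them in MIA PaCa-2. In its DMSO libraries EPCAM was at 0, and KRT7 and CDH1 were 3167-fold and 1891-fold lower than in BxPC-3. Markers of other cell types summed to 286 to 295 counts per 1000000 (CPM) in MIA PaCa-2 with DMSO and to 9.18 to 28.3 CPM with 1E5, with 4 of the 8 (PTPRC, PECAM1, PRSS1 and INS) at 0 in both groups. Epithelial and ductal markers summed to 1374 to 1701 CPM with DMSO and 542 to 608 CPM with 1E5 in that line, and to 3287 to 5116 and 775 to 964 CPM in PANC-1. The part of these shifts in the results below was not tested.

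The inverse agonist 1E5 changed many of the 40 genes in MIA PaCa-2 and PANC-1. Of the 17 glycolytic enzymes, 14 fell in the former line and 7 in the latter, while HK2, which encodes the inducible hexokinase, and VEGFA, which encodes the main angiogenic growth factor, rose several-fold in both. A gene is said to have risen or fallen here when its adjusted p was below 0.05 in edgeR's quasi-likelihood test, two-sided, with Benjamini-Hochberg adjustment over all genes tested in that line. In MIA PaCa-2, 7 of the 38 genes that could be tested rose and 15 fell, where 47% of all genes tested passed (23.6% higher, 23.4% lower). Under scaling by library totals, 61.4% of the called genes were higher in place of 50.2%, and 8 genes of the set rose and 14 fell. In PANC-1, 6 of 39 rose and 11 fell, where 39.1% of all genes passed (19.7% higher, 19.3% lower). The median log2 fold change of the tested genes of the set was -0.26 in PANC-1 and -0.53 in MIA PaCa-2, against 0.02 and 0.05 over all genes. So large a share of all genes passed that the set's counts are given as a description beside it, with no test of the set. In bulk libraries, fewer cells with a transcript and less of it per cell cannot be told apart.

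**Figure D1:**
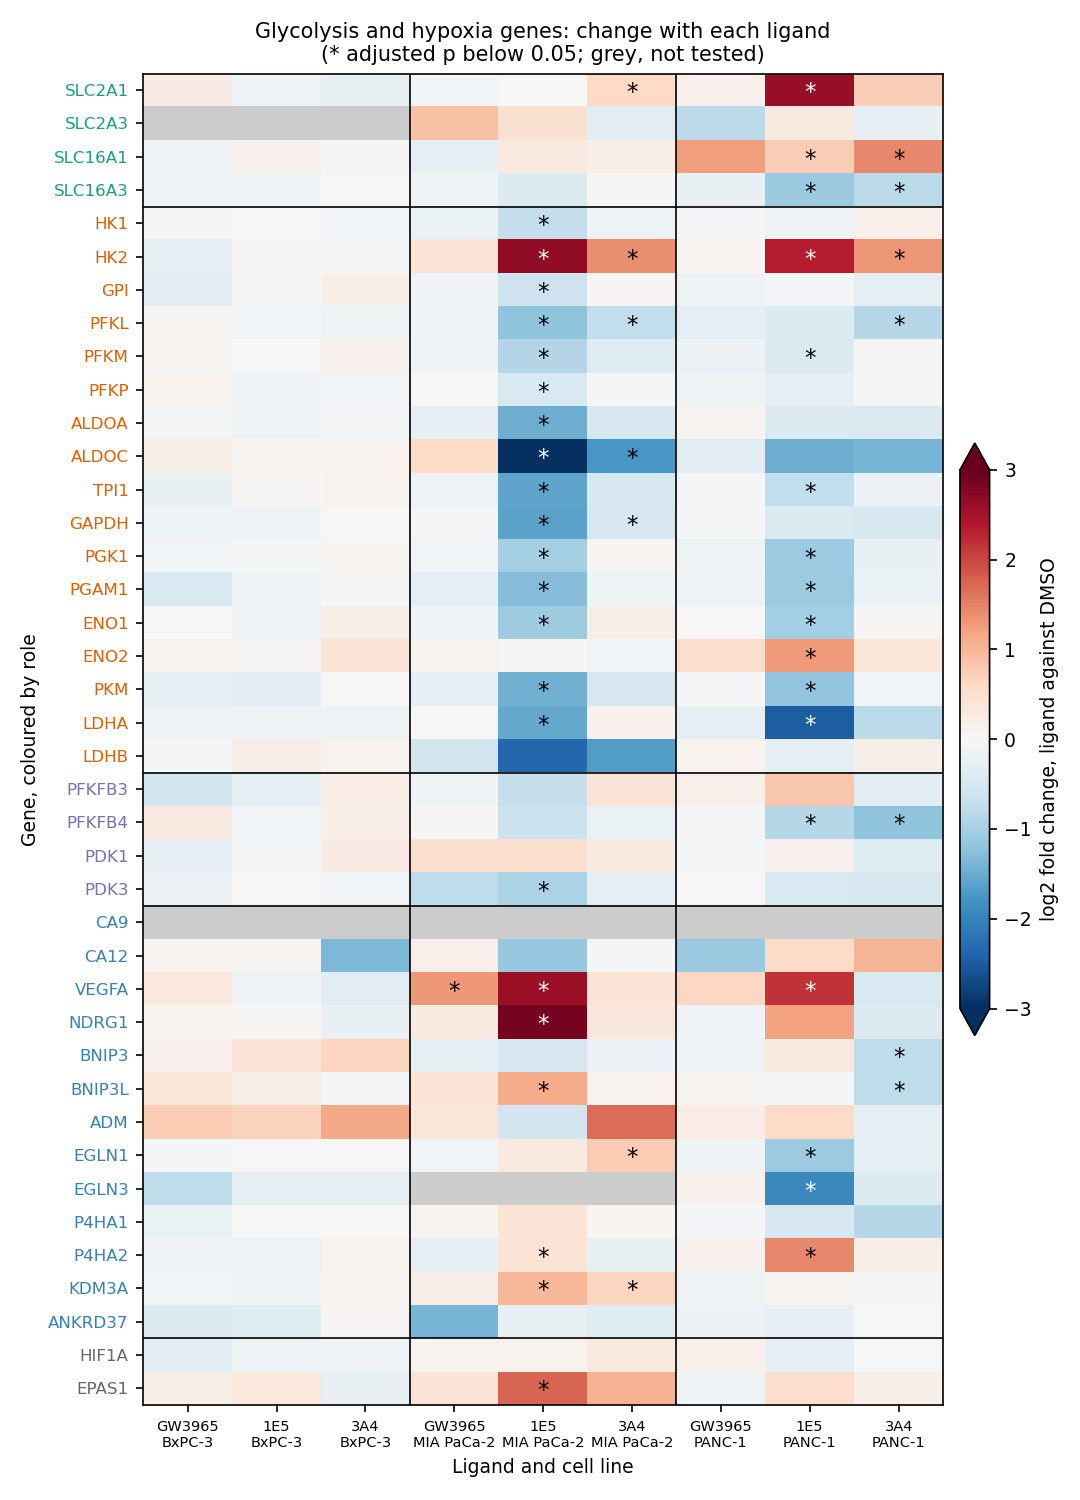
Each row is 1 of the 40 genes, coloured on its label by role, and each column 1 ligand in 1 line. Colour gives the log2 fold change against DMSO, an asterisk an adjusted p below 0.05, and grey a gene that was not tested. The 1E5 columns of MIA PaCa-2 and PANC-1 are mostly blue (lower) along the glycolytic enzymes, with HK2 and VEGFA in red (higher), and the BxPC-3 columns hold no asterisk.

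HIF binds the core letters ACGTG or GCGTG. RefSeq promoters (GRCh38.p14) from 250 bases before to 50 after the start were found for 35 of the 40 genes, and not for SLC2A3, SLC16A1, VEGFA, NDRG1 and BNIP3L. Searched on both strands, 26 of the 35 (74.3%) held at least 1 match, against 48.4% of all 27305 promoters of this length. Base composition was not matched between these sets. The 40 genes were also chosen to include known HIF targets, so the difference may follow from that choice. Of the genes called in the same direction with 1E5 in both MIA PaCa-2 and PANC-1, the 4 promoters with the most matches are printed. LDHA, PGK1 and ENO1 fell and HK2 rose. As they were chosen for their matches, the presence of the letters in them follows from the choice. Capitals mark the matches, 5′ to 3′ on the gene's strand. CACGTG holds ACGTG on both strands and counts as 2 overlapping matches, so that the 6 matches of LDHA include 2 such sites.
LDHA, chr11:18394313-18394612, plus strand: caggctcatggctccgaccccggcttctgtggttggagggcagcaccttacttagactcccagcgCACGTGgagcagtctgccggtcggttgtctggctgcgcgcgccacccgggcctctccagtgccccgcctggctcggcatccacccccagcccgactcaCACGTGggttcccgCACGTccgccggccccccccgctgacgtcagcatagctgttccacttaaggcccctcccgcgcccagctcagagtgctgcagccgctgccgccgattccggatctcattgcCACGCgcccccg
PGK1, chrX:78103998-78104297, plus strand: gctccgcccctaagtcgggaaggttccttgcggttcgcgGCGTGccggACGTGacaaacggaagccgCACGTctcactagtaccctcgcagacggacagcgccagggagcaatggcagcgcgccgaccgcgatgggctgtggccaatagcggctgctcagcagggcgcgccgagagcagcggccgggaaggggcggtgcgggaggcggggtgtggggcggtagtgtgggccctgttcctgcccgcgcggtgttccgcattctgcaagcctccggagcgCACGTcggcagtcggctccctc
HK2, chr2:74833877-74834176, plus strand: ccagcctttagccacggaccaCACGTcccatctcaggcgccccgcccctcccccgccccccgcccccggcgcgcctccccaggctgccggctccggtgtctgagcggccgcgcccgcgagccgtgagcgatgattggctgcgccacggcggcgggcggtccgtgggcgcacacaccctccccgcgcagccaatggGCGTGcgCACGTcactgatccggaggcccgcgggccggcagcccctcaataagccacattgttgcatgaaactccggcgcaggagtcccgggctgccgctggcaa
ENO1, chr1:8878637-8878936, minus strand: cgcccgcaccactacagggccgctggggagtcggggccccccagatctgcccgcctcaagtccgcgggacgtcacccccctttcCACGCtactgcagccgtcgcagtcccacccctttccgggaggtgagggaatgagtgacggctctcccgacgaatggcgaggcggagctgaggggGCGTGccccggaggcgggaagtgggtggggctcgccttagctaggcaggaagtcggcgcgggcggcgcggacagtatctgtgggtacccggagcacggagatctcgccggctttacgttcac
Of the 7 enzymes that fell in both lines, 4 held a match (LDHA, PGK1, ENO1 and PKM) and 3 did not (PFKM, TPI1 and PGAM1). Of the 25 genes with a promoter but no call shared by 2 lines for any ligand, 20 held a match. Among the genes that rose in both lines, P4HA2 held none. A match is a description of the letters, and no binding was measured.

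Before any ligand, the 3 lines differed in transcripts for glucose uptake and hexose phosphorylation. Levels are CPM on library totals scaled within a line, and fold changes between lines come from a separate fit of the 9 DMSO libraries. SLC2A1 (chr1:42925375-42959176, minus strand, GRCh38), which encodes GLUT1, stood at 373, 370 and 382 CPM in BxPC-3, 63.6, 58.7 and 53.4 CPM in MIA PaCa-2, and 25.2, 42.3 and 25.7 CPM in PANC-1. The 3 groups did not overlap, and BxPC-3 exceeded PANC-1 13.4-fold (adjusted p = 4.09e-07). HK2 (chr2:74833981-74893359, plus strand) kept the same order, with 136, 138 and 132 CPM in BxPC-3, 70.7, 56.6 and 37.4 CPM in MIA PaCa-2, and 7.45, 16.5 and 8.54 CPM in PANC-1. Per kb of exon, the constitutive hexokinase HK1 exceeded HK2 in every line. Its mean was 30.0 against 22.3 CPM per kb in BxPC-3, 37.3 against 9.05 in MIA PaCa-2, and 27.5 against 1.79 in PANC-1.

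Several genes were nearly absent from 1 or more lines. LDHB, which encodes the lactate dehydrogenase subunit that favours pyruvate, gave 10, 19 and 0 counts in the MIA PaCa-2 DMSO libraries, or 1.61, 1.81 and 0 CPM. It stood at 738, 676 and 744 CPM in BxPC-3 and 477, 417 and 467 CPM in PANC-1, with a log2 difference of MIA PaCa-2 from PANC-1 of -8.37 (SE 0.38). MIA PaCa-2 thus had LDHA, the subunit that favours lactate, with almost no LDHB transcript. SLC2A3, which encodes the high-affinity transporter GLUT3, was the reverse, at 43.9, 22.8 and 45.3 CPM in MIA PaCa-2 and at most 0.691 CPM in any DMSO library of the other lines. BNIP3, a mitophagy receptor, reached 124, 188 and 136 CPM in PANC-1 and at most 1.13 CPM in BxPC-3 and 1.61 CPM in MIA PaCa-2. EPAS1 (chr2:46293667-46386703, plus strand), which encodes HIF-2 alpha, was at 107, 104 and 117 CPM in BxPC-3, 74.0, 67.6 and 141 CPM in PANC-1, and 3.06, 3.33 and 1.45 CPM in MIA PaCa-2.

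HIF1A (chr14:61695513-61748259, plus strand) was present in all lines, at 371, 444 and 406 CPM in BxPC-3, 140, 180 and 141 CPM in MIA PaCa-2, and 96.1, 115 and 134 CPM in PANC-1. BxPC-3 exceeded both other lines in HIF1A (adjusted p = 4.21e-06 and 1.40e-05), and MIA PaCa-2 and PANC-1 did not differ past the threshold (adjusted p = 0.0565). That difference passed in 6 alternatives, with an adjusted p down to 0.0154 in the fit of all 36 libraries and of 0.0393 without PANC-1 DMSO replicate 3. EGLN3, an oxygen-sensing prolyl hydroxylase, had a count of 0 in all 3 MIA PaCa-2 DMSO libraries and 8.44, 7.91 and 4.27 CPM in PANC-1. Against a floor of 3 counts over the summed totals of MIA PaCa-2, EGLN3 was at least 48.4-fold higher in PANC-1 and at least 94.8-fold higher in BxPC-3, where it measured 10.8, 16.5 and 13.1 CPM. CA12, a membrane carbonic anhydrase, was at 22.8, 27.6 and 33.4 CPM in BxPC-3 and at most 2.41 CPM in a DMSO library of the other lines. CA9 (chr9:35673856-35681159, plus strand), the carbonic anhydrase widely used as a hypoxia marker, did not pass the filter on low counts in any line. It had 0 counts in all 12 MIA PaCa-2 libraries, at most 5 counts in a BxPC-3 library, and in PANC-1 counts only in the libraries numbered 2, with 11 for DMSO, 18 for 1E5 and 4 for 3A4.

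Other genes of the extremes were ADM, ENO2 and TPI1. ADM, which encodes the vasodilator adrenomedullin, measured 54.2, 48.6 and 33.8 CPM in PANC-1, 9, 7.27 and 7.04 CPM in BxPC-3 and 2.58, 1.81 and 2.03 CPM in MIA PaCa-2. ENO2, the neuronal enolase, was highest in MIA PaCa-2 at 93.7, 89.1 and 85.3 CPM, against 22.0, 43.6 and 29.1 CPM in PANC-1 and 7.50, 5.78 and 7.63 CPM in BxPC-3. TPI1, which interconverts the triose phosphates, was also highest in MIA PaCa-2, at 2113, 2309 and 2333 CPM against 816, 808 and 905 CPM in BxPC-3 and 478, 665 and 584 CPM in PANC-1. Of 39 genes tested, 14 were higher and 10 lower in BxPC-3 than in PANC-1, where 57.6% of all genes passed (29.4% higher, 28.2% lower). For MIA PaCa-2 against PANC-1, 13 were higher and 14 lower, where 56.8% of all genes passed (23.5% higher, 33.3% lower). For BxPC-3 against MIA PaCa-2, 14 were higher and 9 lower, where 62.9% passed (36.4% higher, 26.6% lower).

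**Figure D2:**
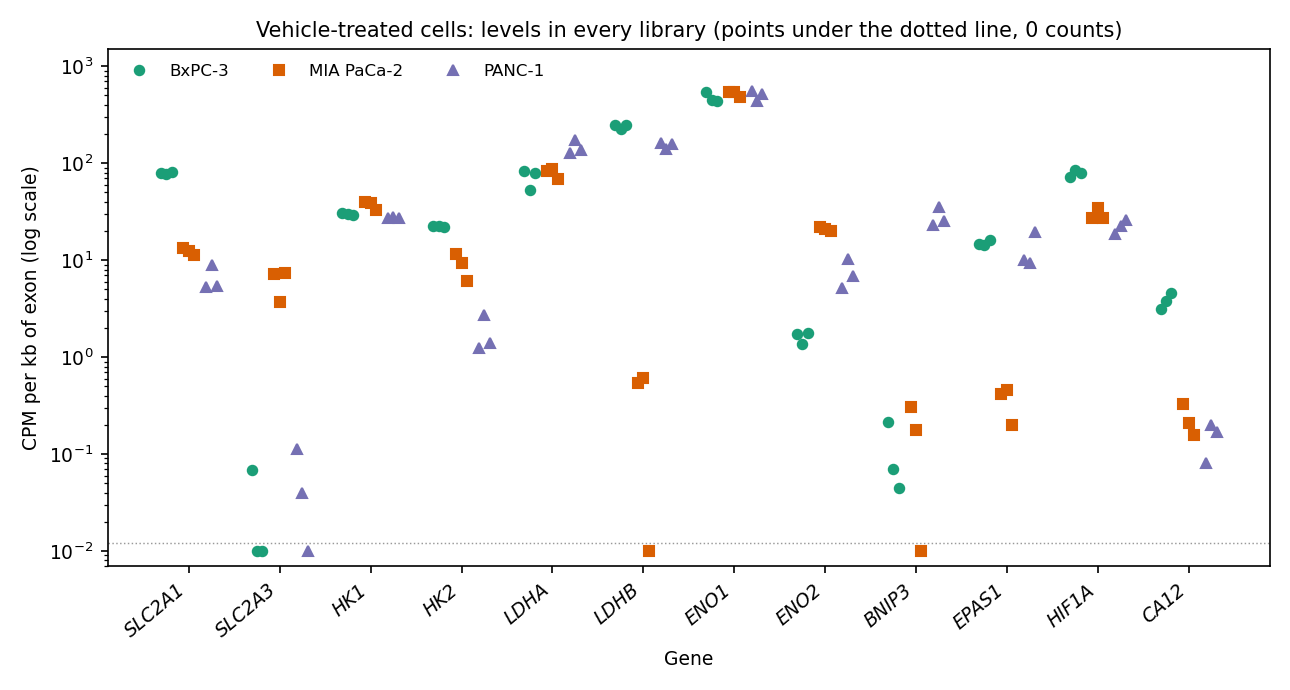
Points are single DMSO libraries of BxPC-3 (circles), MIA PaCa-2 (squares) and PANC-1 (triangles) for 12 of the genes, on a log axis of CPM per kb of exon, with 0 counts drawn under the dotted line. LDHB and EPAS1 are low in MIA PaCa-2, BNIP3 is high in PANC-1, and SLC2A1 and HK2 fall in order from BxPC-3 to PANC-1.

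In BxPC-3, no gene of the set passed with any ligand in the fit by line, which took no libraries as paired. For 1E5, 0 of 38 genes tested passed by edgeR and 0 by DESeq2, with 1 (PKM) at an unadjusted p below 0.05, and 0% of all genes passed in either direction. For GW3965, 0 passed by edgeR and 1 by DESeq2 (PGAM1), with 6 at an unadjusted p below 0.05, where 1.32% of all genes passed (0.477% higher, 0.848% lower). PGAM1 also passed in edgeR with the replicate number as a block (adjusted p = 0.0148) and in the fit of all 36 libraries (adjusted p = 0.0459). For 3A4, 0 passed by edgeR and 1 by DESeq2 (CA12), with 2 at an unadjusted p below 0.05, where 0.0333% of all genes passed (0.0277% higher, 0.00554% lower). The width of the 95% intervals in BxPC-3 varied among genes. With 1E5, the interval of the log2 change was -0.23 to 0.28 for HK2, -0.34 to 0.13 for SLC2A1 and -0.58 to 0.33 for LDHA. Over the 38 genes tested, the lowest bound was -1.28 and the highest 1.84, so sizeable changes are not excluded for every gene. CA12 stood apart with 3A4, at 7.83, 11 and 14 CPM against 22.8, 27.6 and 33.4 CPM with DMSO. These groups did not overlap, and the log2 difference of -1.35 (SE 0.31) had an adjusted p of 0.161 by edgeR, and of 0.0112 with the replicate number as a block.

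In the fits by line, VEGFA was the only gene of the set to pass in edgeR with the agonist GW3965. In MIA PaCa-2 it stood at 162, 152 and 130 CPM against 53.0, 62.7 and 65.0 CPM with DMSO, a 2.46-fold rise without overlap (log2 1.3, SE 0.21, adjusted p = 0.0219). That was 1 of 38 genes tested, where 0.523% of all genes passed (0.418% higher, 0.105% lower). Leaving out any 1 of the compared libraries except GW3965 replicate 3, or the 2 shallowest libraries, ended the call, with an adjusted p of up to 0.0992. In PANC-1, 0 of 39 genes passed by edgeR and 1 by DESeq2, with 3 at an unadjusted p below 0.05, where 0.0485% of all genes passed (0.0431% higher, 0.00539% lower). The gene called by DESeq2 was SLC16A1, which encodes the lactate transporter MCT1. It measured 74.2, 70.3 and 79.3 CPM against 33, 26.4 and 33.9 CPM with DMSO, a log2 difference of 1.26 whose adjusted p was 0.106 in edgeR. It passed in edgeR with only the 2 compared groups in the fit (adjusted p = 0.0201) and with the replicate number as a block (adjusted p = 0.0232). VEGFA in PANC-1 was at 134, 174 and 146 CPM with GW3965 and at 65.2, 150 and 81.4 CPM with DMSO, groups that overlapped, and it passed without DMSO replicate 2 (log2 1.04, edgeR adjusted p = 0.0364).

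Among the 4 transporters, 3 changed with 1E5 in PANC-1, where 39.1% of all genes passed (19.7% higher, 19.3% lower). SLC2A1 in PANC-1 rose to 163, 257 and 150 CPM from 25.2, 42.3 and 25.7 CPM, a 6.12-fold change (log2 2.61, SE 0.23, adjusted p = 1.60e-05). In MIA PaCa-2 it stayed at 62.7, 61.3 and 54.4 CPM against 63.6, 58.7 and 53.4 CPM, with a 95% interval of the log2 change from -0.27 to 0.30. The lactate exporter SLC16A3 (MCT4) fell in PANC-1 to 173, 302 and 153 CPM from 407, 502 and 443 CPM (log2 -1.11, SE 0.21, adjusted p = 0.00198). SLC16A1 rose there by 0.73 on the log2 scale (SE 0.21, adjusted p = 0.0172), from 33, 26.4 and 33.9 CPM to 39.8, 43.9 and 70.7 CPM. The SLC16A1 call was lost in 4 of 12 alternatives, among them without DMSO replicate 2 and without 1E5 replicate 3, with an adjusted p of up to 0.248. None of the 4 transporters passed in MIA PaCa-2, where 47% of all genes passed. SLC16A3 did pass there without 1E5 replicate 3 (log2 -0.74, adjusted p = 0.00218).

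The enzymes fell broadly in MIA PaCa-2 with 1E5. Of 17, 14 fell, 1 rose and 2 did not pass, with a median log2 change of -1.22. Over all genes tested in that line, 23.4% were lower and 23.6% higher, with a median of 0.05. ALDOC, a brain-type aldolase, dropped from 21.4, 23.7 and 31.3 CPM to 1.81, 1.21 and 4.39 CPM (log2 -3.35, SE 0.42, adjusted p = 7.24e-05). GAPDH (chr12:6533927-6538374, plus strand), which oxidises glyceraldehyde 3-phosphate, went from 13345, 13526 and 13147 CPM to 4569, 3922 and 4679 CPM (log2 -1.60, SE 0.15, adjusted p = 5.80e-06). TPI1 went from 2113, 2309 and 2333 CPM to 828, 789 and 646 CPM (log2 -1.58, SE 0.17, adjusted p = 1.85e-05). In each of these genes every 1E5 library lay below every DMSO library. LDHA (chr11:18394388-18408425, plus strand), whose promoter is printed above, fell from 517, 541 and 429 CPM to 246, 135 and 136 CPM (log2 -1.52, SE 0.21, adjusted p = 0.000124). The other enzymes that fell were ALDOA, PKM, PGAM1, PFKL, ENO1, PGK1, PFKM, HK1, GPI and PFKP, by 1.47 down to 0.47 on the log2 scale. All 3 phosphofructokinase genes, which encode the enzyme of the committed step, fell. PFKP fell the least and was no longer called with no filter on low counts or without 1E5 replicate 1, 1E5 replicate 2 or DMSO replicate 1 (highest adjusted p 0.110).

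HK2 went the other way. In MIA PaCa-2 it rose from 70.7, 56.6 and 37.4 CPM to 411, 370 and 262 CPM with 1E5, a 6.29-fold change (log2 2.65, SE 0.25, adjusted p = 8.57e-06). In PANC-1 it rose from 7.45, 16.5 and 8.54 CPM to 62.2, 53.9 and 51.5 CPM, a 5.14-fold change (log2 2.36, SE 0.28, adjusted p = 9.39e-05). No 1E5 library overlapped a DMSO library in either line. HK1, its constitutive counterpart at the first step, fell in MIA PaCa-2 by 0.70 (SE 0.15) on the log2 scale.

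In PANC-1 fewer enzymes changed, with 7 that fell, 2 that rose and 8 that did not pass, and a median log2 change of -0.43. Over all genes tested in PANC-1, 19.3% were lower and 19.7% higher, with a median of 0.02. LDHA fell from 783, 1071 and 859 CPM to 144, 232 and 117 CPM, a 5.51-fold drop (log2 -2.46, SE 0.22, adjusted p = 1.71e-05). PKM (chr15:72199029-72231822, minus strand), which makes pyruvate, fell from 1581, 1590 and 1462 CPM to 639, 885 and 528 CPM (log2 -1.18, SE 0.16, adjusted p = 0.000255). PGK1, PGAM1, ENO1, TPI1 and PFKM fell as well, by 1.10, 1.10, 1.01, 0.73 and 0.44 on the log2 scale. Apart from PFKM, whose call was lost in 6 of 12 alternatives, these enzymes act after the sugar is split. ENO2 rose in PANC-1 from 22.0, 43.6 and 29.1 CPM to 61.7, 105 and 62.7 CPM (log2 1.28, SE 0.29, adjusted p = 0.00575), opposite to ENO1. Per kb, ENO1 still exceeded ENO2 in the vehicle cells of PANC-1, at 508 against 7.37 CPM per kb.

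Replicate 2 of 1E5 in PANC-1 stood apart for several enzymes. GAPDH was at 4745 CPM there and at 1799 and 1708 CPM in the other 1E5 libraries, against 3684, 4014 and 3412 CPM with DMSO. ALDOA measured 417, 837 and 380 CPM with 1E5 and GPI 284, 571 and 258 CPM, in each case with replicate 2 above every DMSO library. That library also held the largest mitochondrially encoded share of the 1E5 group in this line, 6.59% against 2.69% and 3.91%. Without it, 26 genes of the set passed in place of 17, with 6 higher and 20 lower. The share of all genes that passed in that fit is not given here. These counts therefore describe the set alone, and do not show whether the gain is particular to it. The additional calls were GPI, PFKL, ALDOA, ALDOC, GAPDH, LDHB, PDK3, P4HA1 and HIF1A, all lower. GAPDH then had a log2 change of -1.08 (adjusted p = 5.24e-06) in place of -0.43 (adjusted p = 0.296), and ALDOC one of -3.11 in place of -1.46. The part of that share in these values was not tested.

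**Figure D3:**
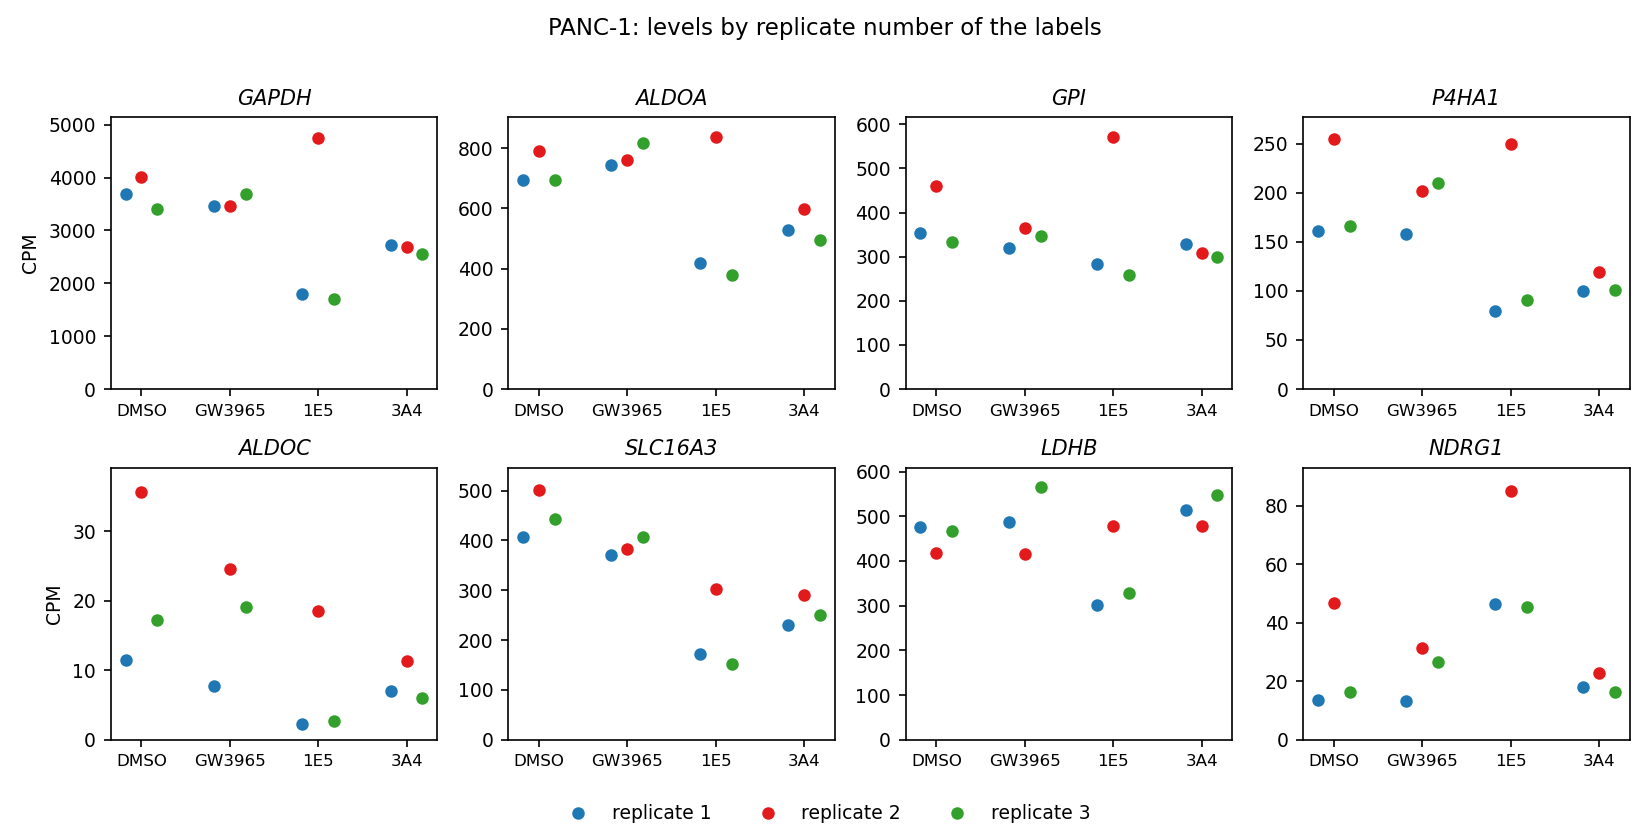
CPM in PANC-1 by ligand, with each library as a point coloured by its replicate number, for 8 genes chosen after their values were seen. With 1E5, replicate 2 lies above the other libraries of its group in each of the 8 panels, for GAPDH at 4745 CPM against 1799 and 1708.

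**Figure D4:**
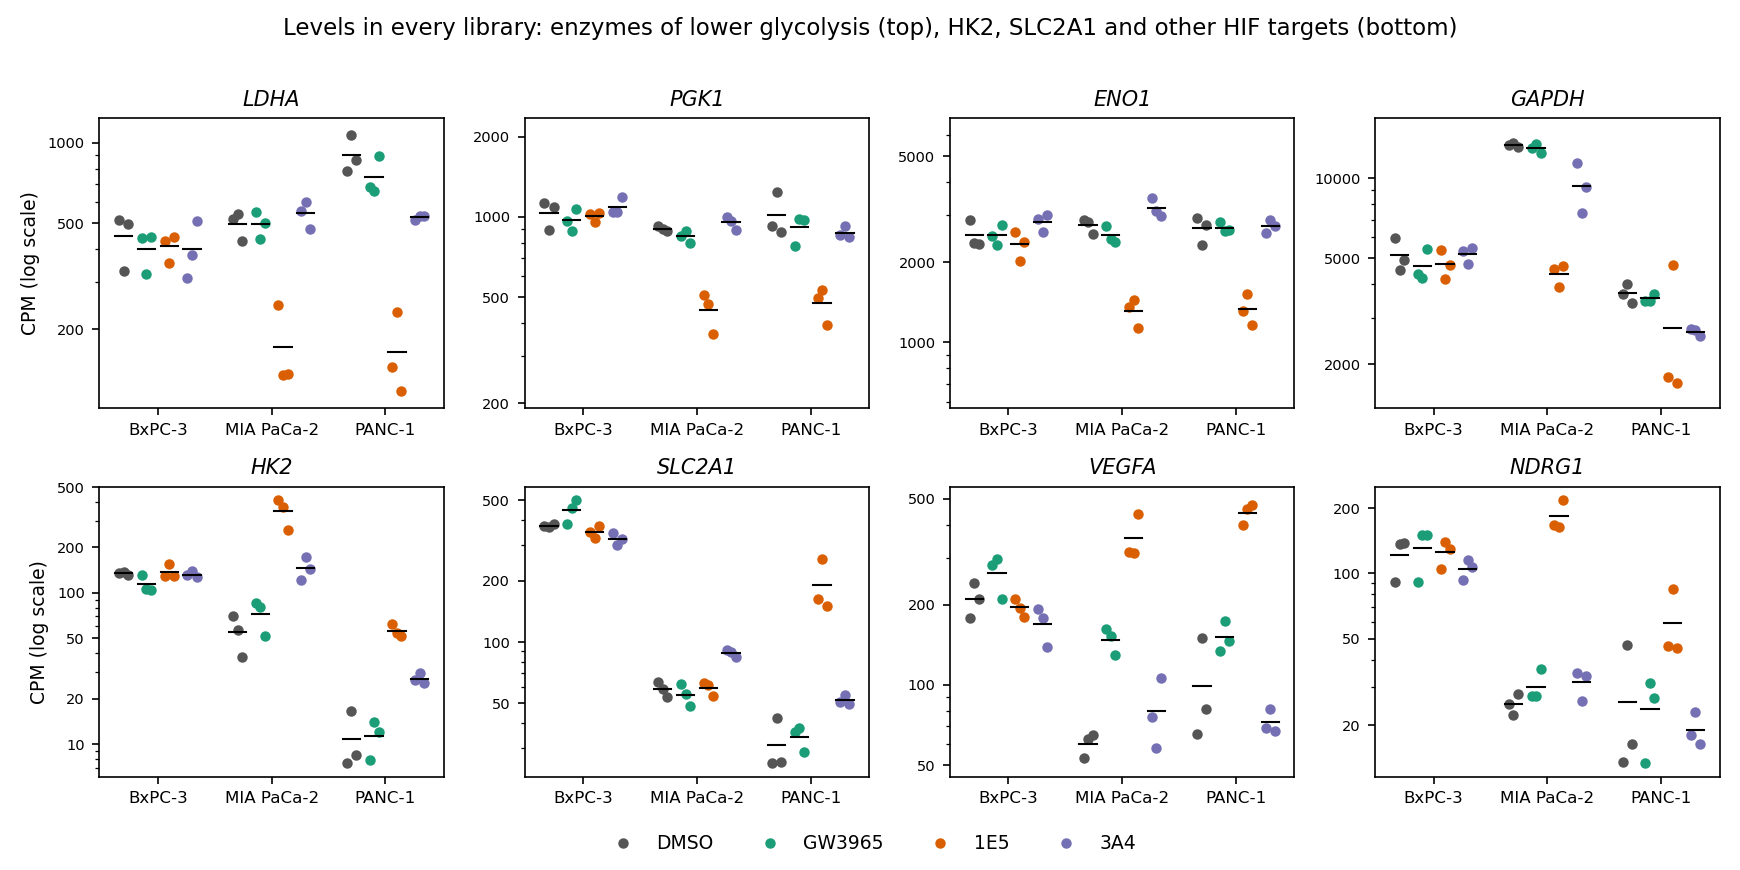
Each panel is 1 gene, with CPM per library on a log axis, the ligand as colour and the group mean as a bar. With 1E5, LDHA, PGK1 and ENO1 sit below every DMSO library in MIA PaCa-2 and PANC-1, HK2 and VEGFA sit above them, and SLC2A1 does so in PANC-1. GAPDH in PANC-1 has 1 of its 3 1E5 libraries above the DMSO libraries.

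The enzymes that fell in both lines with 1E5 were PFKM, TPI1, PGK1, PGAM1, ENO1, PKM and LDHA. They made up 46.7% of the 15 genes of the set that fell in MIA PaCa-2 and 63.6% of the 11 that fell in PANC-1. Of all genes tested in both lines, those that fell in both were 34.5% of the genes that fell in MIA PaCa-2 and 41.3% of those in PANC-1. HK2, VEGFA and P4HA2 rose in both, which is 42.9% of the 7 in MIA PaCa-2 and 50% of the 6 in PANC-1, where the shares over all genes were 36% and 40.2%. These shares are given side by side with no test. No gene of the set passed in opposite directions. The calls of HK2, VEGFA, TPI1, PGK1, PGAM1, ENO1, PKM and LDHA held in both lines under every alternative followed gene by gene. These cover another scaling method, no filter, DESeq2, the replicate number as a block, other sets of libraries and leaving out each compared library. Scaling by library totals was followed only as counts of the set. P4HA2 in MIA PaCa-2 was lost in 5 of 13 alternatives. Several of these enzymes have processed pseudogenes of near-identical sequence, and how reads shared with them were counted is not given in the sources used here.

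**Figure D5:**
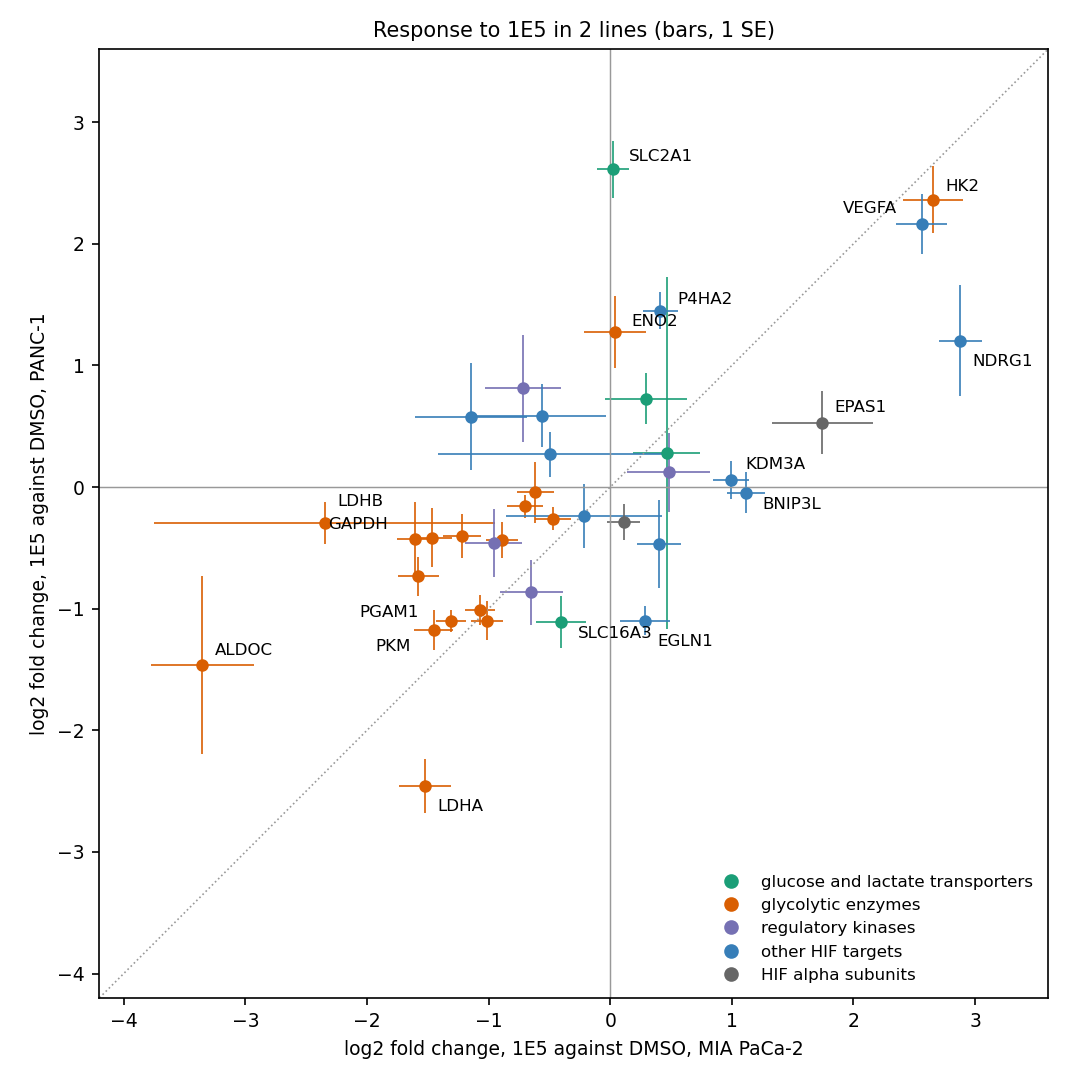
Each point is 1 of 38 genes, with its log2 fold change for 1E5 against DMSO in MIA PaCa-2 on the x axis and in PANC-1 on the y axis. Bars are 1 SE, and the dotted line marks equal change. Most glycolytic enzymes lie lower left, HK2 and VEGFA upper right, and SLC2A1 lies high on the y axis only.

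Among the regulatory kinases, PDK1 (chr2:172555373-172608669, plus strand), a classic HIF target that inhibits pyruvate dehydrogenase, did not pass with any ligand in any line. With 1E5 it measured 11.1, 11.6 and 12.1 CPM against 8.69, 9.23 and 6.67 CPM in MIA PaCa-2, and 21.1, 23.3 and 23.7 CPM against 13.1, 32.5 and 16.9 CPM in PANC-1. The 95% interval of its log2 change ran from -0.26 to 1.22 in MIA PaCa-2 and from -0.59 to 0.84 in PANC-1. PDK1 in BxPC-3 stood at 12.5, 12.8 and 12.9 CPM with DMSO and at 11.4, 11.9 and 13.3 CPM with 1E5. PDK3 fell in MIA PaCa-2 with 1E5 (log2 -0.96, SE 0.24, adjusted p = 0.00535). PFKFB4, which makes the activator of phosphofructokinase, fell in PANC-1 with 1E5 (log2 -0.87, SE 0.27, adjusted p = 0.0237), a call lost in 3 of 12 alternatives.

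Other HIF targets did not follow the enzymes. In MIA PaCa-2 with 1E5, 5 of the 11 tested rose and the other 6 did not pass, with a median log2 change of 0.40. Of all genes tested there, 47% passed (23.6% higher, 23.4% lower), with a median of 0.05. NDRG1, a stress-responsive gene and common hypoxia marker, climbed from 24.9, 22.3 and 27.9 CPM to 167, 163 and 218 CPM, 7.35-fold (log2 2.88, SE 0.18, adjusted p = 5.71e-07). VEGFA (chr6:43770184-43786487, plus strand) climbed from 53.0, 62.7 and 65.0 CPM to 315, 314 and 438 CPM, 5.91-fold (log2 2.56, SE 0.21, adjusted p = 3.29e-06). For both genes every 1E5 library lay far above every DMSO library. BNIP3L, a mitophagy receptor, KDM3A, a histone demethylase, and P4HA2, a collagen prolyl hydroxylase, rose by 1.12, 0.99 and 0.41 on the log2 scale.

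In PANC-1, of 12 HIF targets tested, 2 rose, 2 fell and 8 did not pass, with a median log2 change of 0.17. Of all genes tested there, 39.1% passed (19.7% higher, 19.3% lower), with a median of 0.02. The counts of HIF targets in each direction lie near these shares. VEGFA rose from 65.2, 150 and 81.4 CPM to 398, 458 and 473 CPM, 4.49-fold (log2 2.17, SE 0.25, adjusted p = 7.42e-05). P4HA2 rose from 29.7, 43.4 and 31.9 CPM to 100, 103 and 84.1 CPM (log2 1.45, SE 0.15, adjusted p = 3.87e-05). Both prolyl hydroxylases of the set, which mark HIF alpha for degradation, fell. EGLN3 went from 8.44, 7.91 and 4.27 CPM to 2.5, 1.29 and 1.55 CPM (log2 -1.94, SE 0.41, adjusted p = 0.00372) and EGLN1 fell by 1.10 (SE 0.12, adjusted p = 4.78e-05). NDRG1 measured 46.5, 84.9 and 45.2 CPM against 13.5, 46.7 and 16.3 CPM (log2 1.21, adjusted p = 0.0569), and passed in 4 alternatives, among them without DMSO replicate 2 (log2 1.96, adjusted p = 0.0033).

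HIF1A mRNA did not pass with any ligand in any line. With 1E5 it stood at 161, 162 and 175 CPM in MIA PaCa-2 and at 83.5, 111 and 88.8 CPM in PANC-1, with 95% intervals of the log2 change from -0.18 to 0.40 and from -0.62 to 0.04. In PANC-1 it passed without 1E5 replicate 2 (log2 -0.41, edgeR adjusted p = 0.0466). In BxPC-3 it was at 350, 396 and 366 CPM with 1E5. EPAS1 rose with 1E5 in MIA PaCa-2, from 3.06, 3.33 and 1.45 CPM to 11.1, 7.47 and 8.97 CPM (log2 1.74, SE 0.42, adjusted p = 0.00437), which stayed far below its level in the other lines. In PANC-1 EPAS1 measured 114, 114 and 180 CPM with 1E5 against 74.0, 67.6 and 141 CPM, and in BxPC-3 197, 102 and 108 CPM against 107, 104 and 117 CPM, with no call in either. Without DMSO replicate 3 it passed in PANC-1 (log2 0.94, edgeR adjusted p = 0.00485). HIF activity is set mainly by protein stability, which was not measured.

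3A4 changed fewer genes of the set. In MIA PaCa-2, 4 rose and 3 fell of 38 tested, where 13.8% of all genes passed (7.3% higher, 6.45% lower). Under scaling by library totals, 65.6% of the called genes were higher in place of 53.1%, and 5 genes of the set rose and 3 fell. HK2 rose to 121, 173 and 144 CPM from 70.7, 56.6 and 37.4 CPM (log2 1.40, SE 0.25, adjusted p = 0.00624), and SLC2A1 to 91.4, 89.1 and 84.8 CPM from 63.6, 58.7 and 53.4 CPM (log2 0.59, SE 0.13, adjusted p = 0.0140). EGLN1 was at 83.0, 138 and 87.0 CPM against 62.8, 62.4 and 54.8 CPM (log2 0.77, adjusted p = 0.0297), and KDM3A at 82.9, 94.6 and 103 CPM against 72.4, 58.7 and 49.3 CPM (log2 0.64, adjusted p = 0.0179). Those were the 4 that rose. ALDOC fell to 8.59, 4.31 and 10.0 CPM (log2 -1.74, SE 0.41, adjusted p = 0.0195), PFKL to 224, 149 and 192 CPM from 334, 289 and 324 CPM (log2 -0.75, SE 0.16, adjusted p = 0.0117), and GAPDH to 11414, 7439 and 9240 CPM (log2 -0.51, adjusted p = 0.0379). LDHA did not pass, at 555, 602 and 477 CPM (95% interval of the log2 change -0.33 to 0.60). HK2 and PFKL held under all 13 alternatives. The SLC2A1 call ended without DMSO replicate 3 (adjusted p = 0.0584), and ALDOC, EGLN1, KDM3A and GAPDH were lost in 3, 6, 6 and 9 alternatives, among them the fit without the 2 shallowest libraries. ADM, PKM and ALDOA were not called but passed in 6, 3 and 3 alternatives.

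In PANC-1 with 3A4, 2 genes rose and 5 fell of 39 tested, where 7.37% of all genes passed (3.53% higher, 3.84% lower). SLC16A1 rose to 73.0, 76.6 and 102 CPM from 33, 26.4 and 33.9 CPM (log2 1.43, SE 0.21, adjusted p = 0.00344), and HK2 to 26.4, 29.6 and 25.2 CPM from 7.45, 16.5 and 8.54 CPM (log2 1.32, SE 0.28, adjusted p = 0.0189). PFKFB4 fell to 8.79, 11.9 and 9.77 CPM from 18, 32.7 and 20.0 CPM (log2 -1.21, SE 0.27, adjusted p = 0.0229). PFKL fell to 51.1, 65.2 and 49.8 CPM from 94.7, 111 and 95.2 CPM (log2 -0.86, adjusted p = 0.0190), SLC16A3 to 231, 290 and 250 CPM from 407, 502 and 443 CPM (log2 -0.81, adjusted p = 0.0436), and BNIP3L to 39.2, 44.7 and 40.1 CPM from 58.8, 88.9 and 63.0 CPM (log2 -0.76, adjusted p = 0.0229). BNIP3 fell by 0.75 (adjusted p = 0.0345). Each of these 7 calls was lost in at least 1 of 13 alternatives. HK2 was lost in 5 (highest adjusted p 0.0768), SLC16A3 and BNIP3 in 6, PFKFB4, PFKL and BNIP3L in 3, and SLC16A1 in 1, the fit of all 36 libraries. Leaving out each compared library left 1 to 5 of the set called, and leaving out 1E5 replicate 2, which is in neither group but shares the estimate of spread, gave 12. LDHA, at 514, 532 and 532 CPM, had an adjusted p of 0.0563 (log2 -0.78) and passed in 4 alternatives, among them DESeq2 (adjusted p = 0.0125), only the 2 compared groups (adjusted p = 0.00993) and without 1E5 replicate 2 (adjusted p = 0.0059). SLC2A1, at 50.6, 54.9 and 49.7 CPM against 25.2, 42.3 and 25.7 CPM, had an adjusted p of 0.0812 (log2 0.74, SE 0.23) in groups without overlap. It passed in 5 alternatives, among them DESeq2 (adjusted p = 0.0277), the replicate block (adjusted p = 0.0142) and without DMSO replicate 2 (adjusted p = 0.0388). VEGFA was at 69.1, 81.2 and 67.2 CPM, within its DMSO range.

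In the fits by line, HK2 rose with 3A4 in both lines and PFKL fell in both. The 1E5 and 3A4 comparisons share their DMSO libraries, so the compounds were compared directly at the same dose and time. In MIA PaCa-2, 18 of 38 genes were higher and 6 lower with 3A4 than with 1E5, where 32.4% of all genes passed (17.2% higher, 15.1% lower). ADM was at 12.6, 4.27 and 4.01 CPM with 3A4 and 2.06, 0.948 and 1.3 CPM with 1E5 (log2 2.25, SE 0.49, adjusted p = 0.00452). LDHA was 3.16-fold higher with 3A4 (log2 1.66, SE 0.21), ALDOC 3.06-fold with groups that overlapped, and ENO1 2.43-fold, and in all 14 enzymes were higher with 3A4 and only HK2 lower. NDRG1 was lower with 3A4 at 34.9, 25.9 and 33.6 CPM (log2 -2.54, SE 0.17, adjusted p = 1.43e-06), VEGFA at 75.6, 57.9 and 106 CPM (log2 -2.16, SE 0.21, adjusted p = 1.56e-05), HK2 by 1.25 and BNIP3L at 70.1, 82.2 and 66.8 CPM against 154, 135 and 152 CPM. With 3A4, VEGFA and NDRG1 did not pass against DMSO in this line.

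In PANC-1, 12 of 39 genes were higher and 9 lower with 3A4 than with 1E5, where 37.3% of all genes passed (18.5% higher, 18.8% lower). LDHA was 3.20-fold higher with 3A4 (log2 1.68, SE 0.22, adjusted p = 0.000202), PKM 2.12-fold at 1601, 1346 and 1407 CPM, ENO1 2.05-fold at 2574, 2879 and 2736 CPM, and EGLN3 2.88-fold at 7.71, 3.68 and 4.02 CPM. VEGFA was 6.11-fold lower with 3A4 (log2 -2.61, SE 0.25, adjusted p = 2.71e-05), and SLC2A1, at 50.6, 54.9 and 49.7 CPM, 3.67-fold lower (log2 -1.88, SE 0.23, adjusted p = 0.000136). NDRG1, at 18, 22.9 and 16.3 CPM, and P4HA2, at 40.8, 42.3 and 37.9 CPM, were lower by 1.63 and 1.25. HK2, raised by both compounds, was 2.06-fold lower with 3A4 (adjusted p = 0.0119). In BxPC-3, 0 of 38 genes differed between the compounds by edgeR and 1 by DESeq2 (CA12), with 5 at an unadjusted p below 0.05, where 0.144% of all genes passed (0.0887% higher, 0.0554% lower).

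The response to 1E5 differed among the 3 lines for 25 of 39 genes tested, by an F test of the interaction in 1 fit of all 36 libraries, where 38.5% of all genes passed. For SLC2A1 the log2 changes were 2.61 in PANC-1, 0.02 in MIA PaCa-2 and -0.11 in BxPC-3 (adjusted p = 2.76e-09). For HK2 they were, in the same order, 2.36, 2.65 and 0.03 (adjusted p = 1.14e-06), and for KDM3A 0.06, 0.99 and -0.14 (adjusted p = 9.49e-05). HK2 had its change near 0 in BxPC-3, SLC2A1 its large change in PANC-1 and KDM3A its change in MIA PaCa-2, although the test does not say which line differs. For 3A4, 7 of 39 differed among lines, where 5.89% of all genes passed, and for GW3965 0 of 39 differed by edgeR, with 4 at an unadjusted p below 0.05, where 0.104% of all genes passed.

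Genes beside the set gave more of the pathway. The lists, 75 genes in 6 groups, were other glycolysis and glycogen genes, the pentose phosphate pathway, pyruvate entry into mitochondria, glucose sensing, oxygen sensing with HIF partners, and further HIF targets. HKDC1, a further hexokinase, rose with 1E5 in MIA PaCa-2 from 58.4, 145 and 91.4 CPM to 337, 449 and 459 CPM (log2 2.07), and in PANC-1 from 0.444, 1.18 and 1.01 CPM to 55.6, 12.4 and 33.9 CPM (log2 5.25, SE 0.53, adjusted p = 4.27e-05). The glucose transporter genes SLC2A6 and SLC2A12 fell with 1E5 in both lines, SLC2A12 in PANC-1 from 88.8, 70.5 and 72.0 CPM to 2.34, 6.88 and 2.09 CPM. GYS1, glycogen synthase, fell in both (log2 -1.01 and -1.68). Of the other glycolysis and glycogen genes, 5 rose and 3 fell of 15 tested in MIA PaCa-2, and 5 rose and 4 fell of 15 in PANC-1. With 1E5, 47% of all genes passed in MIA PaCa-2 (23.6% higher, 23.4% lower) and 39.1% in PANC-1 (19.7% higher, 19.3% lower), and the counts of each list are given beside these shares with no test.

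The pentose phosphate pathway, which branches from glucose 6-phosphate, had TKT, its transketolase, lower in MIA PaCa-2 with 1E5, from 754, 776 and 818 CPM to 255, 247 and 372 CPM (log2 -1.43, adjusted p = 4.79e-05), with 4 of 7 genes lower and 1 (RPE) higher, beside 47% of all genes. In PANC-1, 0 of the 7 passed by edgeR and 0 by DESeq2, with 2 at an unadjusted p below 0.05, beside 39.1% of all genes, and the median log2 change was 0.15. For pyruvate entry into mitochondria, 6 of 11 genes fell and 1 rose in MIA PaCa-2, and 5 fell and 2 rose in PANC-1, beside the same 47% and 39.1%. PDHB, a subunit of pyruvate dehydrogenase, fell from 72.9, 75.0 and 58.9 CPM to 31.9, 31.1 and 29.1 CPM and from 87.5, 98.6 and 86.5 CPM to 52.2, 47.1 and 50.4 CPM in these lines. PDK2, which inhibits that enzyme, fell in both as well, by 1.66 and 1.28. MPC1, a subunit of the mitochondrial pyruvate carrier, rose in PANC-1 from 6.37, 7.46 and 8.42 CPM to 47.2, 16.8 and 29.7 CPM (log2 2.07, SE 0.31, adjusted p = 0.000415).

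Further HIF targets changed in both directions with 1E5, with 10 higher and 4 lower of 20 in MIA PaCa-2 and 9 higher and 5 lower of 22 in PANC-1, where 47% and 39.1% of all genes passed. DDIT4, an inhibitor of mTOR signalling, rose from 128, 125 and 161 CPM to 756, 739 and 1182 CPM in MIA PaCa-2 and from 152, 340 and 181 CPM to 931, 1236 and 1126 CPM in PANC-1. ANGPTL4, a lipoprotein lipase inhibitor, fell in both (log2 -1.54 and -2.35). TXNIP, which restrains glucose uptake and responds to glucose, rose in MIA PaCa-2 from 225, 147 and 261 CPM to 819, 607 and 820 CPM (log2 1.83, SE 0.19, adjusted p = 1.64e-05). Among oxygen-sensing genes, 2 rose and 3 fell of 8 tested in each line, with ARNT2, a HIF partner, higher in MIA PaCa-2 (log2 2.19) and lower in PANC-1 (log2 -0.94). With 3A4, DDIT4 fell in PANC-1 to 82.2, 104 and 69.9 CPM (log2 -1.39, adjusted p = 0.0120), while TKT fell in MIA PaCa-2 (log2 -0.96). With GW3965 in BxPC-3, PDK4, a pyruvate dehydrogenase kinase, rose from 2.17, 4.32 and 5.06 CPM to 18.2, 26.7 and 17.0 CPM (log2 2.42, SE 0.40, adjusted p = 0.0188).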

How the data were processed

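Total RNA (500 ng per library) was made into stranded total RNA libraries, per the labels' protocols. The authors deposited 1 table of unnormalized whole-number counts, genes by 36 libraries. Per the submitters' processing notes, Trim Galore 0.4.4, HISAT2 2.0.2, SAMtools 1.3, StringTie 1.3.1c and GRCh38 were used. Their roles, the annotation and the strand setting were not given in the sources used here. Of 58658 lines, 407 naming transcripts and 8 naming assembled loci were left out, at most 0.00396% of a library's counts. Symbols were found for 57532 of the 58243 genes. Coordinates and exon lengths came from GENCODE 29.

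Each line was fitted over its 12 libraries with edgeR 4.0.16 (R 4.3.3), using trimmed-mean (TMM) scaling, filterByExpr with a minimum count of 10 and a minimum total of 15, the quasi-likelihood test, and Benjamini-Hochberg adjustment over the 18042 (BxPC-3), 16254 (MIA PaCa-2) or 18544 (PANC-1) genes tested, two-sided with a threshold of 0.05. The lines were compared over the 9 DMSO libraries (18930 genes), and a difference of response among lines by an F test with 2 degrees of freedom over all 36 libraries (22132 genes). SEs are on the log2 scale and intervals are at 95%. CPM uses TMM-scaled totals within a line. Levels of single libraries rest on library totals of 2701393 to 26026684 counts, and the shallowest are the least precise. The fits were tested on simulated data. DESeq2 1.42.0, other scaling, no filter, a replicate block, other sets of libraries and leaving out libraries were alternatives.

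The genes given with every library were the 4 highest and 4 lowest called per ligand comparison, the 3 highest and 3 lowest per pair of lines, and 8 fixed genes (SLC2A1, HK2, LDHA, PDK1, CA9, VEGFA, HIF1A and EPAS1). Of the pathway lists, at most 3 genes per list, comparison and direction were named. The members and lists were chosen with earlier results of these data known.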

Additional observations from a re-analysis of the deposited data

Results flagged for a closer look

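The change with 1E5 differed among the 3 lines for 25 genes of the set, by edgeR's F test of the interaction over all 36 libraries with adjustment over all genes tested. Among the transporters these were SLC2A1 (adjusted p = 2.76e-09) and SLC16A3 (adjusted p = 0.00802). Among the enzymes of the upper pathway they were HK1 (adjusted p = 0.0160), HK2 (adjusted p = 1.14e-06), PFKL (adjusted p = 0.00098), PFKM (adjusted p = 0.00312), ALDOA (adjusted p = 0.00115), ALDOC (adjusted p = 0.0048) and TPI1 (adjusted p = 6.21e-06). Among those of the lower pathway they were GAPDH (adjusted p = 0.00149), PGK1 (adjusted p = 0.000124), PGAM1 (adjusted p = 4.15e-06), ENO1 (adjusted p = 7.36e-05), ENO2 (adjusted p = 0.0311), PKM (adjusted p = 0.00119), LDHA (adjusted p = 8.42e-06) and LDHB (adjusted p = 0.0321). The LDHB difference rests on a line, MIA PaCa-2, with at most 19 counts in a DMSO library.

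Among the other HIF targets they were VEGFA (adjusted p = 3.47e-07), NDRG1 (adjusted p = 6.23e-05), BNIP3L (adjusted p = 0.00215), EGLN1 (adjusted p = 6.38e-05), EGLN3 (adjusted p = 0.0218), P4HA2 (adjusted p = 4.62e-07) and KDM3A (adjusted p = 9.49e-05), and among the HIF alpha subunits EPAS1 (adjusted p = 0.0307). For EGLN3 the MIA PaCa-2 DMSO libraries held 0 counts.

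With 3A4 the change differed among the lines for 7 genes by the same test. These were SLC2A1 (adjusted p = 0.0180), SLC16A3 (adjusted p = 0.0441), HK2 (adjusted p = 0.0112), PFKFB4 (adjusted p = 0.0280), CA12 (adjusted p = 0.00879), EGLN1 (adjusted p = 0.00837) and KDM3A (adjusted p = 0.0472).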

How the results depend on the processing

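No result changed direction where it was called, in the alternatives followed gene by gene. Under the alternatives, 226 counts of called genes stayed within 1.5 times the count reported and 38 did not. With DESeq2, 1 gene passed in place of 0 for GW3965, for 3A4 and for 3A4 against 1E5 in BxPC-3 and for GW3965 in PANC-1, and 11 in place of 7 for 3A4 in MIA PaCa-2. With the replicate number as a block, 1 passed in each of those 4 comparisons with 0, and 11 in place of 7 differed among lines with 3A4. Over all genes, 2053 in place of 1304 then differed among lines with 3A4. For GW3965 in BxPC-3, 1 passed in the fit of all 36 libraries and with scaling by library totals. With only the compared groups, the counts were 4 for 3A4 in MIA PaCa-2, 11 for 3A4 and 1 for GW3965 in PANC-1. Without the 2 shallowest libraries, 0 passed for GW3965 and 4 for 3A4 in MIA PaCa-2. With no filter, 4 differed among lines with 3A4, and over all genes 872 in place of 1304. Without 1E5 replicate 2, 12 passed for 3A4 in PANC-1, an alternative chosen after seeing the data, as was scaling by library totals. Leaving out each compared library gave 0 to 1 for GW3965 in PANC-1 and in MIA PaCa-2, 2 to 9 for 3A4 in MIA PaCa-2, 1 to 5 for 3A4 and 15 to 26 for 1E5 in PANC-1, and 4 to 8 for the 3A4 difference among lines. For the other counts of this paragraph, calls over all genes are not given beside them, so those counts describe the set alone. The cause of the shifts was not tested.

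Same-numbered libraries were not taken as paired, since the labels do not say what a number marks. The correlations of deviations from the group means do not settle this. They were above 0.1 for 4 of 18 same-numbered pairs in PANC-1, 5 in MIA PaCa-2 and 8 in BxPC-3. The lowest were -0.0237, -0.0624 and 0.0215 in these lines. The median correlation was 0.0621, 0.0579 and 0.0899 for same numbers and -0.0333, -0.0302 and -0.0614 for other numbers. By the mean correlation with the other groups, 11, 10 and 12 of the 12 libraries of these lines correlated best with their own number, a hint from the data and not the design. With the block, calls over all genes in BxPC-3 went from 6 to 275 for 3A4, from 26 to 412 for 3A4 against 1E5 and from 239 to 478 for GW3965. The number called in these comparisons thus depends on whether same-numbered libraries are treated as pairs. Scaling by library totals moved the median of all genes by 0.183 on the log2 scale for 1E5 in MIA PaCa-2, and the share of called genes that were higher from 50.2% to 61.4%. For 3A4 there, that share went from 53.1% to 65.6%. The set then had 8 higher and 14 lower in place of 7 and 15 with 1E5. Depth limits MIA PaCa-2 with DMSO and GW3965 most, where low genes such as EPAS1 and LDHB rest on few counts.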

Other observations

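Libraries numbered 2 in PANC-1 were often the highest of their group for the genes of the set. With DMSO, replicate 2 was highest for 29 of the 39 genes tested, where it was highest for 34.8% of all genes counted. The shares of all genes in this paragraph are over those with at least 10 counts in every library of the group. These were 15632 genes for PANC-1 with DMSO, and the genes of the set were not filtered in this way. With GW3965 it was highest for 19 of 39 (36.5% of all genes), with 1E5 for 30 of 39 (44.8%) and with 3A4 for 23 of 39 (33.8%). In the other lines, libraries of other numbers were often highest. In MIA PaCa-2, replicate 1 was highest for 20 of 38 genes with DMSO (33% of all genes), 18 with GW3965 (27.6%), 14 with 1E5 (34.4%) and 19 with 3A4 (35.7%), and replicate 3 for 19 with 1E5 (35.1%). In BxPC-3, replicate 3 was highest for 22 of 38 with GW3965 (34.3%) and 18 with DMSO (31.6%), and replicate 1 for 18 with 1E5 (38.7%) and 16 with 3A4 (36.4%). CA9, the hypoxia marker, had its only counts in PANC-1 in the same libraries, 11 with DMSO, 18 with 1E5 and 4 with 3A4. The labels give no separate culture condition for these libraries.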
